A study of Rattus norvegicus with 3 samples.

Results

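The nuclear genes for subunits of the mitochondrial respiratory chain and ATP synthase were followed in rat kidney on 3 whole-transcript expression arrays (Clariom S). Members were all genes whose array symbol begins with Nduf, Uqcr, Atp5 or Cox4 to Cox8, plus the 4 Sdh genes, Cyc1 and Cycs. The choice rests on names and not on measured values, and it gave 94 of the 20667 genes that have a cluster of their own. By role, 36 members are subunits of complex I, 4 of complex II, 9 of complex III, 15 of complex IV including tissue isoforms, and 12 of complex V. Cytochrome c is 1 gene, a further 9 are assembly factors or associated proteins, and 8 are copies or pseudogenes of subunit genes.

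Kidney RNA came from 3 male rats, with 1 array per rat. The control rat is labelled only as control, and the arrays called EG day 2 and EG day 5 are from rats given ethylene glycol orally at 8 g/kg and sampled at day 2 or day 5. Strain, age, the control's vehicle and whether the dose was given once or daily are not stated in the labels. Ethylene glycol is an alcohol that the liver converts to glycolate and oxalate, and calcium oxalate crystals form in the kidney tubules after large doses. Each group is a single rat, the spread between animals is unknown, and no difference below was tested. Both comparisons with control share the control array, and any peculiarity of that array enters both.

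The respiratory chain sits in the inner mitochondrial membrane. Complex I takes electrons from NADH and complex II from succinate, ubiquinone carries them to complex III, cytochrome c carries them on to complex IV, and complex IV passes them to oxygen. Complexes I, III and IV pump protons, and complex V, the ATP synthase, uses the proton gradient to make ATP. Most subunits are encoded in the nucleus, and a small set of core subunits is encoded by mitochondrial DNA. In the kidney the proximal tubule and the thick ascending limb are dense in mitochondria and depend on respiration for salt and solute transport.

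Signals are given as the log2 value of a transcript cluster, the set of probes assigned to one transcribed locus. A level of 5.34, the 95th percentile of olfactory receptor genes taken as silent in kidney, served as background, and lower values were raised to it before differences were taken. A gene was counted as measured when at least 1 array reached this level, which held for 13546 genes and for 89 of the 94 members. Control, EG day 2 and EG day 5 had cluster medians of 6.21, 6.26 and 6.30, and 12615 to 12804 genes at or above background. These medians lie not far above background and do not show whether the arrays are alike in the brighter range of most subunits. Of the 18 proximal tubule markers and the 11 markers of the thick ascending limb and distal tubule, 18 and 10 were at or above background on all arrays. Levels of different genes are read by different probes and were not compared with each other. The folds are on the deposited scale, which reaches 19.93 and may stretch or compress differences in RNA.

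Across all 89 measured members the median log2 difference from control was -0.15 on the EG day 2 array and -0.01 at EG day 5, beside 0.05 and 0.01 over all measured genes. At EG day 2, 56 of 89 members were below their control value (62.9%, against 42.5% of all measured genes). At EG day 5, 45 of 89 were below control (50.6%, against 46.7% of all measured genes). The 72 measured subunits and cytochrome c alone gave medians of -0.15 and -0.02. Their quartiles ran from -0.32 to 0.11 at EG day 2 and from -0.32 to 0.29 at EG day 5, so the middle of the subunit values lay within 0.32 log2 units of control on both arrays. The 2047 other genes with a mean signal in the subunits' middle range, 10.76 to 13.97, had medians of 0.06 and -0.10. Of these, 44.5% were below control at EG day 2 and 57.1% at EG day 5. In these bulk samples fewer tubule cells and less RNA per cell cannot be told apart. On the same arrays the 18 proximal tubule markers had medians of -0.76 and -0.84 and the 12 measured macrophage markers 1.23 and 1.43, and their part in the subunit values was not tested.

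The share of members at least 1.5-fold lower than control was near that of all measured genes, and the share higher was smaller. At EG day 2, 8 members were at least 1.5-fold lower than control (8.99% of members, against 9.18% of all measured genes) and 3 were at least 1.5-fold higher (3.37%, against 14.8%). At least 2-fold, 1 member was lower and 1 higher, against 2.45% and 4.45% of all measured genes. At EG day 5, 12 members were at least 1.5-fold lower (13.5%, against 12.0%) and 8 were at least 1.5-fold higher (8.99%, against 15.1%). With the arrays centred on their medians the EG day 5 split was 16 lower and 5 higher. Of the 2047 other genes in the subunits' signal range, 10.4% fell below control by this fold on the first EG array, and 13.9% rose above it. On the second EG array 19.4% fell and 11.9% rose, so the lower share of members was under that of genes of like brightness. For subunits and cytochrome c alone, 6.94% fell and 1.39% rose on the first array, and 11.1% and 8.33% on the second. At least 2-fold, 2 members were lower and 1 higher at EG day 5, against 3.62% and 4.75% of all measured genes. On the deposited scale no member past 2-fold was a subunit of a complex. They were Ndufb3l and Atp5hl1 on the lower side and the assembly factor Ndufaf6 on the higher side. Quantile normalization and cyclic loess each put 3 members at least 2-fold higher at EG day 5.

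Some calls sat close to the threshold. At EG day 5, Cox6c, Ndufa10, Ndufaf5, Ndufb2, Ndufb9, Sdha and Uqcrfs1 came to within 1.5-fold of control under at least 1 other scaling of the arrays.

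The EG day 5 array was also set against the EG day 2 array. There 5 members were at least 1.5-fold lower (5.62%, against 12.8% of all measured genes) and 8 were at least 1.5-fold higher (8.99%, against 9.31%), and none was past 2-fold in either direction (2.21% of all measured genes were higher and 3.34% lower). Quantile normalization gave 3 lower and 13 higher, and cyclic loess 3 lower and 12 higher. The 2047 other genes in the subunits' signal range had a median of -0.15 there, with 18% at least 1.5-fold lower and 6.01% higher. The lower members were Ndufa10l1, Ndufaf1, Atp5hl1, Ndufa10 and Ndufs1, with log2 differences from -0.97 to -0.64. The 8 higher members were Uqcr11, Ndufs7, Ndufs6, Atp5l, Cycs, Ndufs5, Cox7b and Cox5b, with log2 differences from 0.59 to 0.97. Per complex, the medians between the EG arrays were 0.08 for complex I, 0.16 for complex III and 0.14 for complex IV, and -0.08 for complex II and -0.07 for complex V.

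**Figure D1:**
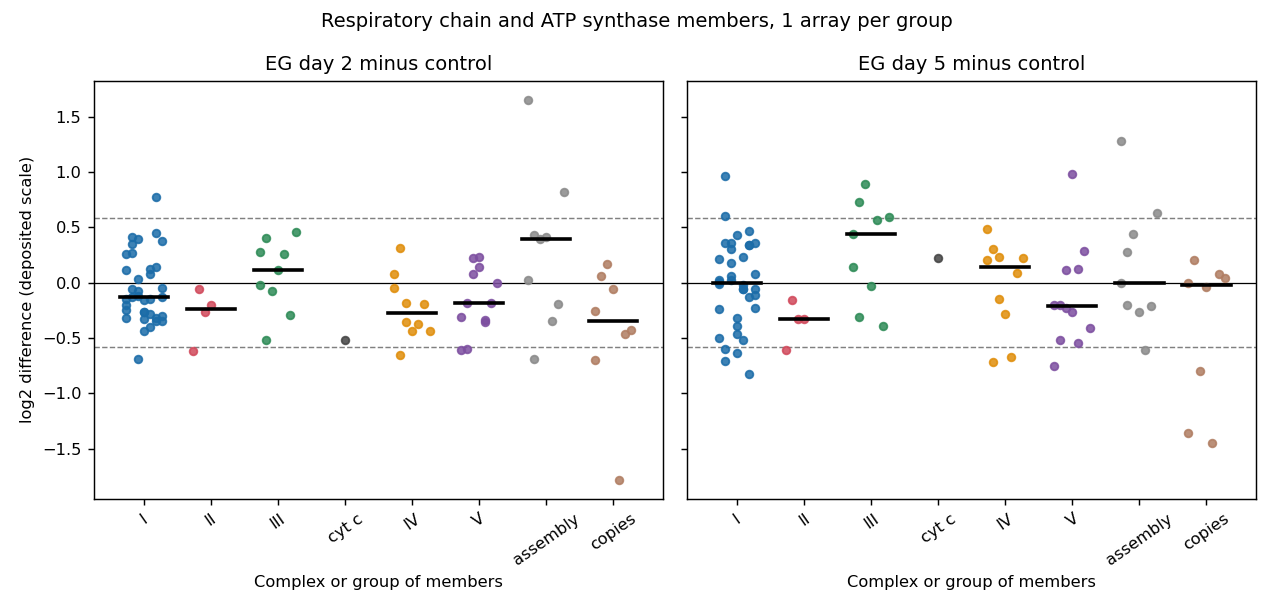
Log2 difference from control of each measured member at EG day 2 (left) and EG day 5 (right), grouped by complex. Each point is 1 gene on 1 array pair, black bars are group medians and dashed lines mark 1.5-fold. Complex II lies below 0 in both panels, and the complex III median is 0.11 in the left panel and 0.44 in the right.

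The promoters of subunit genes are known for sites of nuclear respiratory factor 1 (NRF1), of GABP and other ETS factors, of YY1 and of the estrogen-related receptors (ERR). RefSeq sequence of the rat assembly GRCr8, from 250 bases before to 50 after the annotated start, was matched for 63 of the 72 measured subunits and searched on both strands. The NRF1 motif, GCGCA and GCGC with any base between, was in 12 of 63 subunit promoters (19.0%), against 9.56% of promoters of measured genes and 4.25% of all promoters. CCGGAAGT, the ETS motif, was in 8 (12.7%), against 7.81% and 3.81%. ATGGCGGC, the YY1 motif, was in 11 (17.5%), against 5.63% and 2.53%. TCAAGGTCA, the ERR motif, was in 2 (3.17%), against 0.263% and 0.433%. A promoter can hold several motifs, and 28 of the 63 held at least 1. The 4 promoters below are those of the matching subunits with the 2 highest and the 2 lowest EG day 5 differences from control, and were thus chosen by their values. Capitals mark the NRF1 motif, and in Uqcrc1 also the YY1 motif as the second run.
Ndufs5, chr5:141264353-141264652 (minus strand): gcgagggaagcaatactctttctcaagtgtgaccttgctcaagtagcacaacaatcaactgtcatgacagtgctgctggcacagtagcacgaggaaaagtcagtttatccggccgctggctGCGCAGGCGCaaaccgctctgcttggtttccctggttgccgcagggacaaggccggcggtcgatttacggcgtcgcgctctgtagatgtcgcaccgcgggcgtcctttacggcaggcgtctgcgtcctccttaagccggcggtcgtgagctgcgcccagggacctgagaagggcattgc
Uqcrc1, chr8:118467973-118468272 (plus strand): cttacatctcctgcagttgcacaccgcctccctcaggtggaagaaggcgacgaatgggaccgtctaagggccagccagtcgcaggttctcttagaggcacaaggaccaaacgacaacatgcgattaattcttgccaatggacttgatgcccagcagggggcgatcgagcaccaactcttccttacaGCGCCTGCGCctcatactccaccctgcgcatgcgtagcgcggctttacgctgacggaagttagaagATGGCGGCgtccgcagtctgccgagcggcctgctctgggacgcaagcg
Ndufb4, chr11:76568928-76569227 (plus strand): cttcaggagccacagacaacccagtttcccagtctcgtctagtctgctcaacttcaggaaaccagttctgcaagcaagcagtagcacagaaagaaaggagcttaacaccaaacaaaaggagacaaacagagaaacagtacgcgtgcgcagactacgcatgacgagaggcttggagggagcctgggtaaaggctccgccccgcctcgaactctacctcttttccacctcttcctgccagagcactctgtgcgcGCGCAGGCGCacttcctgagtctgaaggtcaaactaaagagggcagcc
Sdha, chr1:30764303-30764602 (plus strand): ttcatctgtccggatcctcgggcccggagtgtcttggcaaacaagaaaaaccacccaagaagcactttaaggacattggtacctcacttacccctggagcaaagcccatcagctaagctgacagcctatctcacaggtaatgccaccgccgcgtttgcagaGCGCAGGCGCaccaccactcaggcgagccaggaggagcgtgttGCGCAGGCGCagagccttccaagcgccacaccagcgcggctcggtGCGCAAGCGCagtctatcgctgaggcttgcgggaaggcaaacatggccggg
Ndufs5 and Uqcrc1 were higher than control at EG day 5 and Ndufb4 and Sdha lower, and all 4 promoters carry the NRF1 motif, at 3 positions in Sdha. The way they were chosen fixes that both directions are present. A match of letters does not show that a factor binds.

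Complex I, the NADH dehydrogenase, had median differences of -0.13 (EG day 2) and 0.00 (EG day 5) over its 36 measured subunits, with 23 and 18 of them below control. These counts are 63.9% and 50%, against 42.5% and 46.7% of all measured genes. The 7 nuclear core subunits, which hold the flavin, the iron-sulfur clusters and the ubiquinone site, had medians of -0.30 and -0.13. Their direction was not shared. Ndufs1, the large iron-sulfur subunit of the electron input module, read 14.25, 14.37 and 13.73 in the order control, EG day 2, EG day 5, so that EG day 5 stood apart and was 1.56-fold below EG day 2. Series of 3 values keep this order from here on.

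Ndufs7, the subunit with the last iron-sulfur cluster before ubiquinone, went the other way at day 5. It read 8.16 in control, 7.83 at EG day 2 and 8.59 at EG day 5, a log2 difference of 0.76 between the EG arrays. Ndufs3 of the same arm read 12.17, 12.12 and 12.53, also highest at EG day 5. Ndufv1 and Ndufv2, of the flavin module that oxidises NADH, differed from control by -0.35 and -0.30 at EG day 2 and by -0.13 and -0.23 at EG day 5. Ndufs8 stayed within 0.15 log2 units of control on both arrays.

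The 29 accessory subunits of complex I, which surround the core and are needed for its assembly and stability, had medians of -0.12 and 0.02. Ndufs5, on the intermembrane side, showed the highest complex I difference from control at EG day 5. It read 11.82 in control, 12.09 at EG day 2 and 12.78 at EG day 5, 1.95-fold above control. Ndufb2, in the membrane arm, read 10.08, 10.43 and 10.68 and was 1.52-fold above control at EG day 5. In both genes control was the lowest array and EG day 5 the highest.

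Lower EG day 5 values were seen for other accessory subunits. Ndufa10, a membrane arm subunit facing the matrix, read 14.18, 14.12 and 13.47 and was 1.64-fold below control. Ndufb4 read 11.19, 10.92 and 10.55 and was 1.56-fold below control. Ndufb9, which carries the LYR motif of proteins that bind the acyl carrier subunit, read 13.53, 13.40 and 12.93 and was 1.52-fold below control. In all of these the EG day 5 array was the lowest of the 3.

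At EG day 2 other accessory subunits stood out. Ndufs6, a zinc-binding subunit of the arm in the matrix, read 9.21, 8.52 and 9.27, so that the EG day 2 array alone was low, by 1.61-fold. Ndufa2, a small subunit of the electron input module, read 7.35, 8.12 and 7.69, and its EG day 2 value was 1.71-fold above control. It was the single complex I subunit at least 1.5-fold higher at that day.

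Complex II, the succinate dehydrogenase, which also works in the tricarboxylic acid cycle and has no subunit encoded by mitochondrial DNA, was below control for all 4 subunits on both EG arrays. Its median differences were -0.24 and -0.33. Of all measured genes, 42.5% (EG day 2) and 46.7% (EG day 5) were below control. Sdha, the flavin subunit that oxidises succinate, read 14.82 in control, 14.20 at EG day 2 and 14.21 at EG day 5, 1.54-fold and 1.53-fold below control. Both EG arrays were nearly equal and the control array alone was higher. Sdhb, the iron-sulfur subunit, read 14.48, 14.42 and 14.32, a difference of at most -0.16 from control. Sdhc and Sdhd, the membrane anchors, were at -0.27 and -0.20 at EG day 2 and both at -0.33 at EG day 5. Between the EG arrays the complex II median was -0.08, and it turned to 0.05 under quantile normalization and 0.07 under cyclic loess.

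Complex III, the ubiquinol-cytochrome c reductase, had the highest median of the complexes at both days, 0.11 and then 0.44. Above control were 5 and 6 of its 9 subunits. The share below control was 44.4% and 33.3%, against 42.5% and 46.7% of all measured genes. Uqcr11, a small supernumerary subunit, read 12.64, 12.56 and 13.53 and was 1.85-fold above control at EG day 5 but not at EG day 2. Uqcr10, another small subunit, read 12.26, 12.66 and 12.99, 1.66-fold above control at EG day 5. Uqcrfs1, the Rieske iron-sulfur protein, read 13.92, 14.38 and 14.51, 1.51-fold above control at EG day 5. For the latter pair both EG arrays were above control.

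The other catalytic subunit, Cyc1 (cytochrome c1), read 12.33, 12.61 and 12.77, and the core protein Uqcrc1 read 10.00, 10.26 and 10.57, 1.48-fold above control at EG day 5 and just inside the threshold. Uqcrc2, the partner core protein, read 14.93, 14.64 and 14.54 and was thus the only core or catalytic subunit lower on both EG arrays. Uqcrq, which lies beside cytochrome b, read 11.96, 11.44 and 11.65 and was also lower on both. Uqcrb and Uqcrh stayed within 0.14 log2 units of control. The complex III genes did not share one direction.

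**Figure D2:**
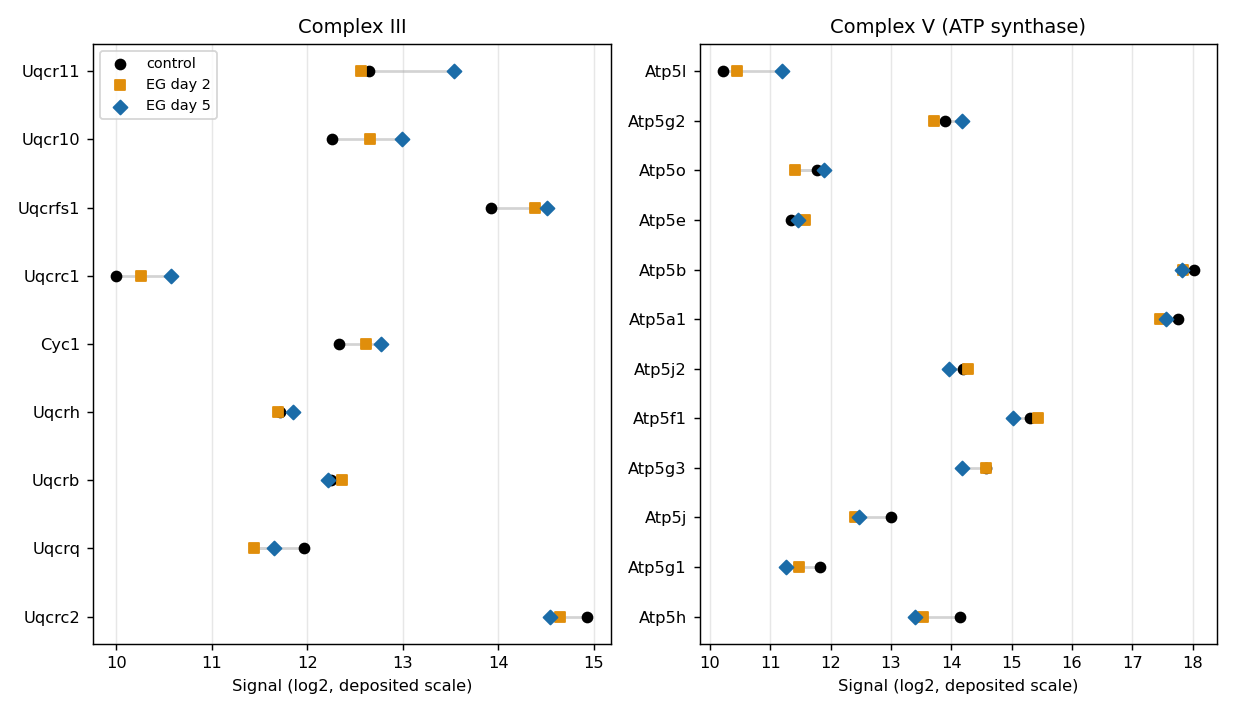
Signal (log2, deposited scale) of each complex III subunit (left) and ATP synthase subunit (right) on the 3 arrays (control, EG day 2, EG day 5), 1 marker per array, ordered by the EG day 5 difference from control. Levels can be compared along a row only. Uqcr11 reads 13.53 at EG day 5 against 12.64 in control, and Atp5h reads 13.40 against 14.15.

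Cytochrome c of somatic cells, Cycs, which shuttles electrons from complex III to complex IV, read 13.18 in control, 12.66 at EG day 2 and 13.40 at EG day 5. The EG day 2 array was the low one, at -0.52 from control, and EG day 5 was 1.67-fold above EG day 2. A brighter cluster that names Cycs together with LOC100363502 read 17.25, 16.19 and 16.67, lower than control on both EG arrays, at -1.06 and -0.58. The clusters thus differ at EG day 5, and the cluster naming both genes cannot be assigned to either.

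Complex IV, cytochrome c oxidase, lay at a median of -0.28 (EG day 2) and 0.15 (EG day 5) over its 10 measured members, with 8 and 4 of them below control. These counts are 80% and 40%, against 42.5% and 46.7% of all measured genes. The EG day 5 median was 0.01 with clusters that name several genes added, 0.06 with the arrays centred on their medians, 0.29 under quantile normalization and 0.34 under cyclic loess. Cox4i1, the common isoform of subunit 4, read 10.72, 10.67 and 11.20, highest at EG day 5. Cox5a and Cox5b, which lie on the matrix side, differed from control by 0.31 and -0.36 at EG day 2 and by 0.30 and 0.23 at EG day 5. Cox5b and Cox7b were the complex IV members that differed by at least 1.5-fold between the EG arrays: Cox5b read 14.41, 14.05 and 14.64. Cox7b, a small membrane subunit, read 13.98, 13.54 and 14.20. In both the EG day 2 array was the lowest of the 3.

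Cox6c, another small membrane subunit, read 15.60, 15.23 and 14.93 and was 1.59-fold below control at EG day 5, the lowest array of the 3. Cox6a1 was at -0.44 and -0.28 from control. Cox7a2, Cox8a and Ndufa4, which was first assigned to complex I and is now counted with complex IV, stayed within 0.20 log2 units of control on both EG arrays. Clusters naming Cox7c and Cox6b1 together with another locus read -0.39 and -0.59 (Cox7c) and -0.21 and -0.07 (Cox6b1) from control.

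Isoforms of complex IV typical of other tissues were mostly under background. Cox6a2 and Cox8b of heart and skeletal muscle read at most 3.78 and 4.36, the oxygen-responsive Cox4i2 at most 3.59, the testis isoform Cox7b2 at most 3.71, and Ndufa4l2, a hypoxia-induced relative of Ndufa4, at most 5.02. All 5 were under 5.34 on all 3 arrays, so no difference was read for them. Cox8c, a testis isoform, was close above background at 6.12 in control, 5.47 at EG day 2 and 5.40 at EG day 5. Its differences of -0.65 and -0.72 therefore rest on values near the floor, and they enter the complex IV medians and counts. Among 9 skeletal and heart muscle markers, 2, 1 and 3 reached background on the 3 arrays in the order control, EG day 2, EG day 5.

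Complex V had medians of -0.18 (EG day 2) and -0.22 (EG day 5) over 12 subunits, with 7 and 8 of them below control. These counts are 58.3% and 66.7%, against 42.5% and 46.7% of all measured genes. The EG day 5 median of complex V did not keep its sign under rescaling, with 0.04 under quantile normalization and 0.03 under cyclic loess. Atp5b and Atp5a1, the catalytic beta subunit and the alpha subunit of the F1 head, were close to control. Atp5b read 18.02, 17.84 and 17.82, and Atp5a1 read 17.76, 17.45 and 17.56. At this brightness, near the top of the scale, a fold may be compressed. Atp5e, the epsilon subunit, was at 0.22 and 0.11 from control. A cluster that names Atp5e together with LOC100361879 read 11.56, 11.18 and 11.43, at -0.38 and -0.13 from control. The clusters thus differ in direction on both EG arrays. Atp5c1 and Atp5d, the gamma and delta subunits, have only clusters naming a second gene, which differed from control by -0.63 and -0.55 (with Taf3) and by 0.07 and -0.36 (with LOC100910032).

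The subunits of the peripheral stalk, which holds the F1 head in place, included the lowest differences from control in the complex. Atp5h (subunit d) read 14.15, 13.54 and 13.40, 1.53-fold and 1.68-fold below control. Atp5j (subunit F6) read 13.00, 12.40 and 12.48, 1.52-fold and 1.43-fold below control. In both genes the EG arrays lay together below control. Atp5o, the oligomycin sensitivity protein, read 11.77, 11.41 and 11.89. Atp5f1 (subunit b) had 2 clusters that disagreed at EG day 2: the brighter was at 0.14 and -0.27 from control and the other at -0.48 and -0.83.

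The 3 c-ring genes, Atp5g1, Atp5g2 and Atp5g3, encode the same mature proton-carrying subunit. Their EG day 5 differences from control were -0.55, 0.29 and -0.41, so they did not share a direction. The membrane subunit Atp5l (subunit g), which takes part in pairing ATP synthases, had the highest EG day 5 difference from control in the complex. It read 10.22 in control, 10.45 at EG day 2 and 11.20 at EG day 5, 1.97-fold above control. Usmg5, a small ATP synthase subunit outside the symbol rule, differed by -0.40 and -0.59. Atpif1, the inhibitor of ATP hydrolysis by the enzyme, differed by -0.01 and 0.11.

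Assembly factors of complex I, which build the complex and are not part of it, had medians of 0.42 (EG day 2) and 0.04 (EG day 5) over 6 genes. Ndufaf6 gave the largest difference above control of all members. It read 5.81 in control, 7.46 at EG day 2 and 7.09 at EG day 5, 3.14-fold and 2.43-fold above control, with a control value only slightly above background. Ndufaf5, a factor that hydroxylates the Ndufs7 protein in human cells, read 6.51, 7.33 and 7.14, 1.77-fold and 1.55-fold above control.

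Ndufaf1, an early assembly factor, read 9.30, 9.71 and 9.03 and its EG day 5 value was 1.60-fold below that of EG day 2. Ndufaf2, a late factor, read 5.95, 5.60 and 5.16, the last under background, so EG day 5 was at least 1.53-fold below control. Ndufaf4 and Ndufaf7 were at -0.19 and 0.43 at EG day 2. All 6 factors read lower on the later EG array than on the earlier one, with differences from -0.68 to -0.02 (51.9% of all measured genes were lower). The cluster naming Ndufaf3 together with Mir3555 was at 0.37 between the EG arrays, and the 7 measured complex I factors outside the symbol rule had a median of 0.11 there, 4 of them higher and 2 lower. Atp5sl, known now as Dmac2 and an assembly factor of complex I too, read 7.95, 7.26 and 7.75 and was 1.61-fold below control at EG day 2 alone. Cox7a2l, which links complexes III and IV into supercomplexes, was at 0.39 and 0.44.

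A wider list of 27 measured assembly factors of complexes II to V gave medians of 0.21 and 0.06. At EG day 2, 5 were at least 1.5-fold higher (18.5%, against 14.8% of all measured genes) and 1 lower (3.7%, against 9.18%). At EG day 5, 3 were higher (11.1%, against 15.1%) and 3 lower (11.1%, against 12.0%). Cox19, which takes part in the copper supply of complex IV, was at 0.89 and 1.01. Bcs1l, which inserts the Rieske protein into complex III, read 5.85, 6.95 and 5.82 and was high on the EG day 2 array alone. Cox18, which helps to insert a mitochondrially encoded complex IV subunit into the membrane, read 5.76, 6.72 and 6.48. Among 7 measured complex I factors outside the symbol rule the medians were 0.00 and 0.10, with Timmdc1 at 0.93 and Tmem70 at -0.84 at EG day 5.

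The copies and pseudogenes held the lowest differences from control of all members, and probes for a copy may also read the parent gene. Ndufb3l, which had no entry in the gene table used, read 8.22, 6.44 and 6.77, 3.43-fold and 2.73-fold below control, while Ndufb3, the gene it is named after, was at -0.12 and 0.18. Atp5hl1, annotated as a pseudogene and named after Atp5h, read 8.98, 8.28 and 7.62, 1.62-fold and 2.57-fold below control. Its order over the arrays was the same as that of Atp5h. Ndufa10l1 read 12.54, 12.71 and 11.74, 1.74-fold below control at EG day 5, with the same low array as Ndufa10. The other 5 copies stayed within 1.5-fold of control.

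The mitochondrially encoded partners could barely be read. Of 10 clusters for these genes, 8 stood at 19.9 or more on all 3 arrays, the ceiling of the scale, so no difference could be seen for them. ND6, the one complex I subunit encoded on the other strand of mitochondrial DNA, read 16.37 in control, 15.13 at EG day 2 and 15.85 at EG day 5. The cluster naming ATP6, ATP8 and COX3 read 18.70, 17.93 and 18.16. In both the EG day 2 array was the lowest, and EG day 5 lay between.

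**Figure D3:**
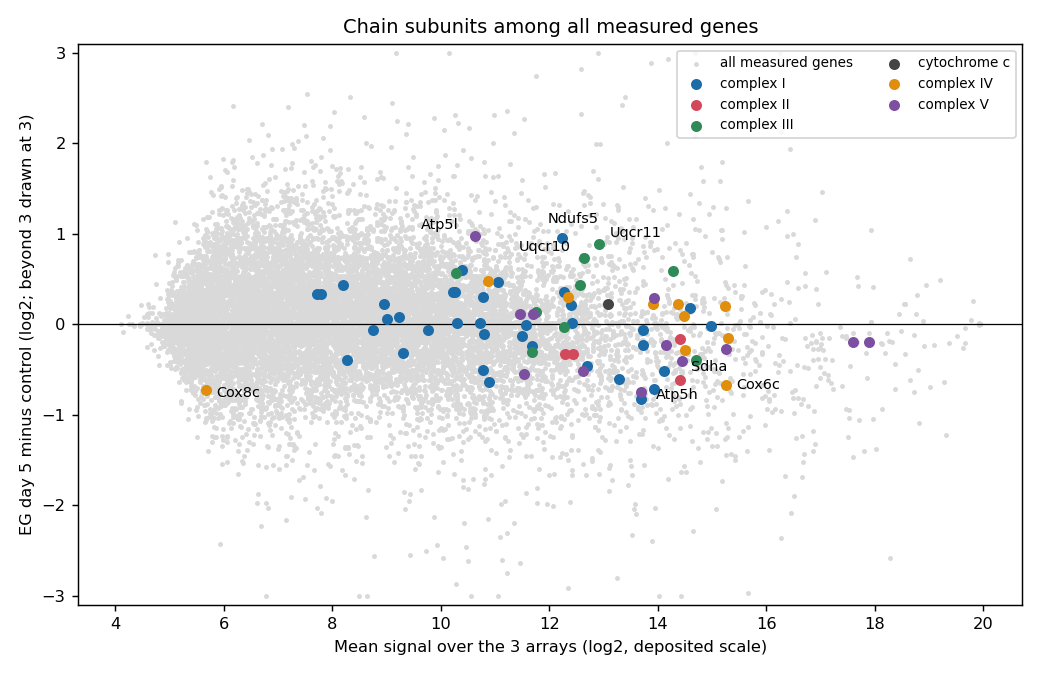
Log2 difference between EG day 5 and control against mean signal over the 3 arrays (both log2, deposited scale) for all 13546 measured genes (grey) and the subunits (coloured by complex). Values beyond 3 are drawn at 3. The subunits lie among the other genes, up to 0.98 (Atp5l).

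Over the 72 subunits and cytochrome c the difference was only weakly related to brightness. Pearson's r with mean signal was -0.15 for the first EG array and -0.20 for the second, and Spearman's rho -0.16 and -0.27, given as a description across genes on the same 3 arrays.

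The tricarboxylic acid cycle supplies the chain with NADH and succinate. The 19 measured genes of the cycle and of pyruvate dehydrogenase had medians of -0.24 (EG day 2) and -0.45 (EG day 5), with 15 and 18 of them below control. These counts are 78.9% and 94.7% of the list, against 42.5% and 46.7% of all measured genes. At least 1.5-fold, 3 and then 7 were lower (15.8% and 36.8%, against 9.18% and 12.0% of all measured genes), and none was higher (14.8% and 15.1% of all measured genes were). Idh3g, a regulatory subunit of NAD-dependent isocitrate dehydrogenase, read 14.48, 14.24 and 13.43. Pdk2, the kinase that restrains pyruvate dehydrogenase, read 14.02, 12.91 and 12.73. For both genes control was highest and EG day 5 lowest.

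Electron entry, ubiquinone synthesis and inner membrane exchange, 23 genes, had medians of -0.09 and -0.06. Etfdh, which passes electrons from fatty acid oxidation to ubiquinone, read 12.00, 11.43 and 10.86. Ucp2, an inner membrane carrier of the uncoupling protein family, read 10.21, 10.87 and 11.67 and went the other way. Coq5, an enzyme of ubiquinone synthesis, was at 0.63 and -0.13. Among 13 measured regulators of mitochondrial genes the medians were 0.08 and -0.11, and the EG day 2 value turned to -0.06 under quantile normalization and -0.05 under cyclic loess. Ppargc1a, a coactivator of mitochondrial biogenesis, read 14.43, 13.62 and 13.55, and its relative Ppargc1b was at 0.73 and 0.68. Tfb2m, a factor for transcription of mitochondrial DNA, was at -0.07 and -0.94.

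**Figure D4:**
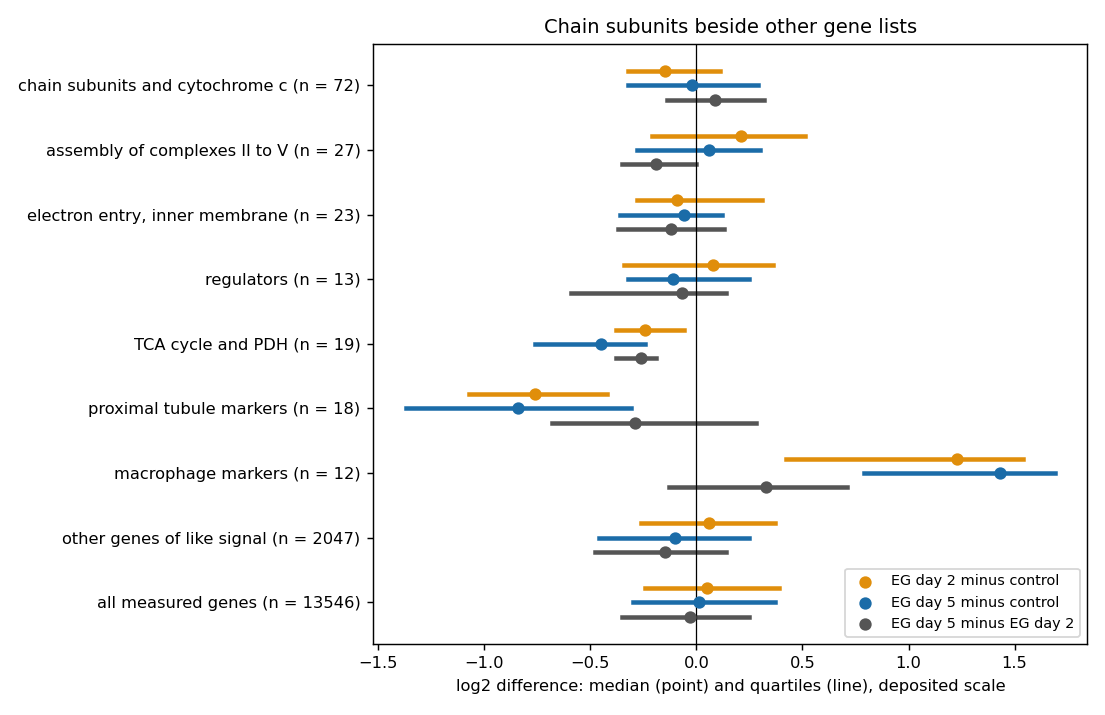
Median (point) and quartiles (line) of the log2 differences for the chain subunits, other mitochondrial lists and cell type markers in the 3 comparisons, on the deposited scale, with the number of measured genes in brackets. The subunit medians lie at -0.15, -0.02 and 0.09, the proximal tubule markers at -0.76, -0.84 and -0.29.

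The cells of the tissue were followed by marker genes. Of 18 proximal tubule markers, 12 were at least 1.5-fold below control on each EG array (66.7% each time, against first 9.18% and then 12.0% of all measured genes), with medians of -0.76 and -0.84. The EG day 5 median was -0.47 under quantile normalization and -0.55 under cyclic loess, and the median of -0.29 between the EG arrays came to -0.02 and -0.13. Their summed signal was 21.98 in control, 21.28 at EG day 2 and 21.35 at EG day 5. Slc5a12, a lactate transporter of this segment, was at -1.63 and -2.97. Markers of the thick ascending limb and distal tubule had medians of -0.38 and -0.39 over 11 genes, and collecting duct markers 0.03 and 0.21 over 9. Podocyte and endothelial markers gave -0.15 and -0.14 over 9 genes.

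Macrophage markers were higher, at medians of 1.23 and 1.43 over 12 measured of 13, with 8 and 11 at least 1.5-fold above control (66.7% and 91.7%, against 14.8% and 15.1% of all measured genes). Their summed signal was 15.30 in control, 16.94 at EG day 2 and 17.21 at EG day 5. This sum was nearly all Lyz2, which read 15.24, 16.91 and 17.18. Fat markers, 5 measured of 8, had medians of -0.48 and 1.05 and a summed signal of 10.36, 10.62 and 11.44.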

How the data were processed

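Total kidney RNA of 3 rats was labelled with biotin and hybridised to Clariom S rat arrays, 1 per rat. The authors deposited 1 log2 signal per transcript cluster, made with Transcriptome Analysis Console on the rat annotation of build rn6, with no filter, per the file headers; the submitters' processing notes name the same program and build. The sources used here do not give its version, background correction, summarisation or normalization. Both deposited tables held 69564 identical values of 69564.

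Of 23188 clusters, 21502 named 1 gene, and a gene was read from its brightest cluster. Background was the 95th percentile of 1058 olfactory receptor genes, and lower values were set to it. Differences are between log2 values, and no test was possible with 1 array per group. Members, gene lists and the rule for naming genes (core subunits by name, members at least 1.5-fold apart, up to 3 genes of each other list) were chosen with earlier results of these data known. Some genes that the rule takes are not reported here by name. Complexes were assigned by gene symbol. Of the 94 symbols, 78 are current in the RefSeq table of GRCr8, 14 are older ones and 2 had no entry. Another 8 symbols had only clusters naming several genes.

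Alternatives were a lower background or none, quantile normalization, median centring, cyclic loess (limma 3.58.1, R 4.3.3), the mean of clusters, clusters naming several genes, and subunits only. The calculations (Python 3.11.15, pandas 2.3.3, numpy 2.4.6) were tested on simulated data.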

Additional observations from a re-analysis of the deposited data

Results flagged for a closer look

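Complex IV as a group lay below control at EG day 2, with a median log2 difference of -0.28, and above it at EG day 5, at 0.15. The EG day 5 median was 0.06 with the arrays centred on their medians and 0.01 with clusters naming several genes added. The core complex I subunit Ndufs7 did the same, at -0.33 and 0.43. Both stand out because the time points lie on opposite sides of the same control array. The difference between the time points was not tested, since each is 1 rat.

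A cluster naming Mfsd7 and Atp5i, left out of the members because it names 2 genes, was higher at EG day 2 by 0.83 and was at -0.27 at EG day 5. It read 5.88, 6.71 and 5.61, near background. Atp5i encodes subunit e of ATP synthase, and which of the genes gives this signal is not known. Only such clusters above control were looked for here. Among those below control at EG day 2 were the clusters naming Cycs (-1.06) and Atp5c1 (-0.63).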

How the results depend on the processing

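No paired analysis was possible because each group has 1 array, and no replicate could be left out. Of 144 recomputed medians of all members and of the complexes, 123 moved by at most 0.1 log2 units, and 78 of 96 recomputed counts stayed within 1.5 times. Several settings could move few of these values. Subunits alone leave the list of each complex as it was, and the mean of clusters touches only 3 members. Almost all larger shifts of a median came with quantile normalization or cyclic loess. Between the EG arrays both shifted the median of all members and of every complex by more than 0.1. Changes of sign came with quantile normalization and cyclic loess. They gave the complex V median as 0.04 and 0.03 at EG day 5 against control and as 0.06 and 0.08 at EG day 5 against EG day 2 (-0.07 as deposited), and the complex II median between the EG arrays as 0.05 and 0.07. At EG day 2 quantile normalization gave complex I -0.24, and the pair gave complex V -0.07 and -0.08. At EG day 5 against control they gave complex IV 0.29 and 0.34, loess gave complex III 0.55, and adding clusters that name several genes gave complex IV 0.01. Between the EG arrays they gave 0.19 and 0.19 for all members, 0.19 and 0.20 for complex I, 0.32 and 0.31 for complex III and 0.27 and 0.30 for complex IV.

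Counts of members past 1.5-fold moved as follows. Subunits alone gave 1 higher and 5 lower at EG day 2, and 2 lower at EG day 5 against EG day 2, where quantile normalization gave 13 higher and 3 lower and loess 3 lower. Median centring gave 5 higher at EG day 5 against control. Past 2-fold, subunits alone gave 0 in each direction against control at both days, and adding clusters that name several genes gave 2 lower at EG day 2 and 1 lower between the EG arrays. Quantile normalization and loess each gave 3 higher at EG day 5 against control and 1 higher between the EG arrays, and median centring 1 lower there. Of 338 values of single called members 18 came to within 1.5-fold and 0 changed sign. Among the other lists, chosen for this after seeing the data, the regulators at EG day 2 turned to -0.06 and -0.05, the electron entry median between the EG arrays came to 0 under loess, and the proximal tubule markers at EG day 5 came to -0.47 and -0.55 and between the EG arrays to -0.02 and -0.13. The causes were not tested. Bright clusters near the ceiling of 19.93 and dim ones near 5.34 limit what these arrays can show.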
